A study of Mus musculus with 6 samples.

Results

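The genes described here encode the junctions of the intercalated disc, the cell border at which heart muscle cells are joined end to end. They were chosen by name, and all 10 were present among the 49585 gene rows of the table: the gap junction genes Gja1 and Gja5, the desmosome genes Dsp, Jup, Pkp2, Dsg2 and Dsc2, and the adherens junction and scaffold genes Cdh2, Ctnna3 and Tjp1. The measurement was ribosome profiling of whole hearts, in which fragments of 25 to 35 nt shielded by ribosomes are sequenced, so a read count reflects the amount of mRNA and its translation together. The ground control group, GC, holds 3 libraries of hearts at 1 g, from age-matched male C57BL/6J mice housed under station-like conditions, with 6 such mice per mission. The partial gravity group, PG, holds 3 libraries from male mice kept at 0.167 g in habitat cages spun at 31 rpm with a radius of 15 cm; the labels name a supplier but no strain for them. All mice are labelled as 8 or 9 weeks old. PG and GC differ in housing and flight as well as in gravity, which cannot be told apart here. The labels do not say which mouse or mission a library came from, so the spread behind every p-value is that of these samples and may be technical.

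Desmosomes anchor the desmin filaments of neighbouring heart muscle cells to each other, and adherens junctions do the same for the actin filaments of the contractile apparatus. Gap junctions are clusters of connexin channels that pass ions, and with them the electrical impulse, from cell to cell. In the heart the junction types lie intermixed in the disc, and inherited defects of the desmosome genes cause arrhythmogenic cardiomyopathy in people.

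The table gave 2212473 to 3196070 exon reads per library, of which Lars2 and Tmem38b took 45.5% to 52.5%. PG replicate 3 stood apart from its group: its counts differed from those of PG replicates 1 and 2 with a chi-square per degree of freedom of 24.2 and 14.8, where the other pairs within groups had 4.16 to 5.15. The junction genes together held 2739, 3277 and 4777 exon reads in GC replicates 1, 2 and 3 and 5039, 5873 and 3992 in PG replicates 1, 2 and 3. Outside Lars2 and Tmem38b these were 0.248% to 0.287% of exon reads in GC and 0.342% to 0.367% in PG. With Dsp left out the ranges were 0.160% to 0.184% in GC and 0.196% to 0.218% in PG, which do not overlap. These are plain shares of reads, without the scaling between libraries used in the tests below. Gene by gene on the scaled counts of those tests, not on plain shares, the groups overlapped in 7 of the 10. Of all genes tested, 16.3% had groups that did not overlap. The heart label was met by the marker genes, since all 12 ventricular muscle markers had enough reads to be tested and summed to 42543 to 51933 CPM, the read count scaled to library size, in each library.

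Of the junction genes, Dsp was higher in PG and the other 9 did not pass the test. All 10 had enough reads for the quasi-likelihood test of edgeR, which was run on 9124 genes with Benjamini-Hochberg adjustment and a threshold of 0.05. That threshold was passed by 0.581% of the genes tested, 0.252% higher and 0.329% lower in PG. At a raw p below 0.05 there were 2 junction genes, Dsp and Tjp1, both higher in PG, where 10.4% of all genes tested lay under that value, 4.82% in the higher direction. All 10 log2 changes were positive, with a median of 0.28, beside 49.7% positive and a median of 0.00 over all genes tested. Without PG replicate 3 the log2 change was -0.10 for Gja5 and 0.58 for Dsp. In 3 of the 10, Dsp, Dsg2 and Tjp1, every PG library lay above every GC library on the CPM scale, which held for 8.06% of all genes tested, and in the other 7 the groups overlapped.

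**Figure D1:**
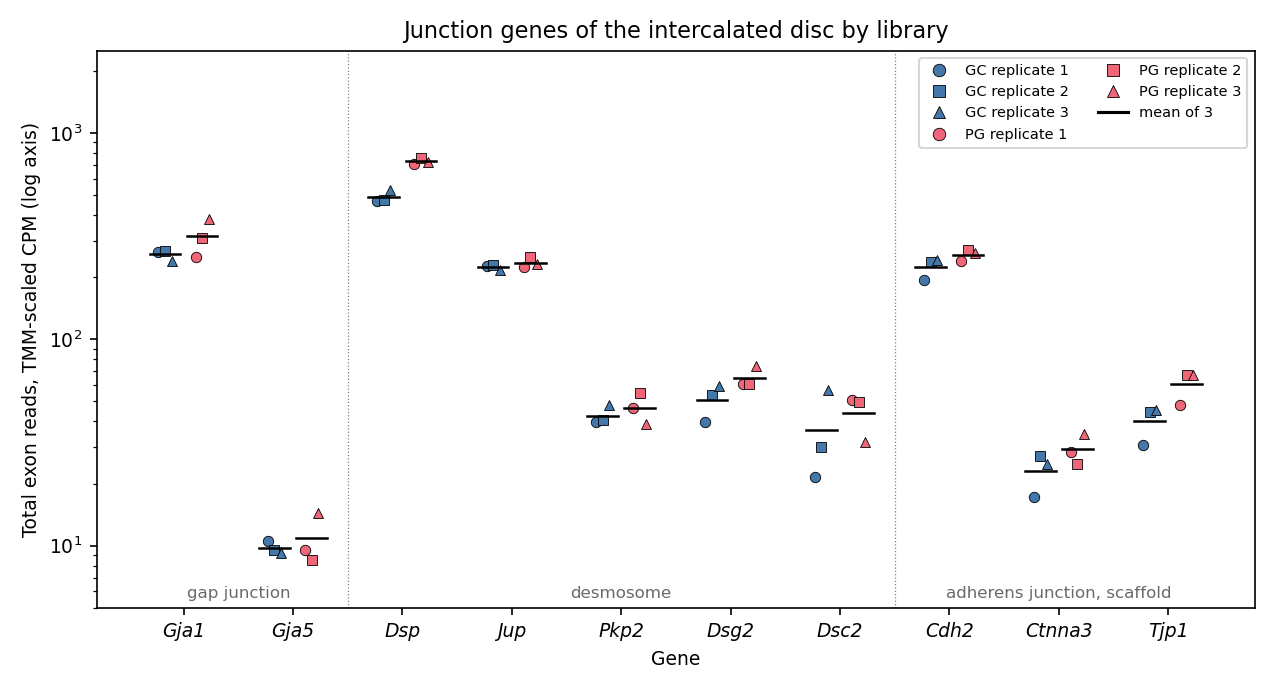
Reads of each junction gene in every library, as CPM scaled by trimmed mean of M-values (TMM) on a log axis; circles, squares and triangles are replicates 1, 2 and 3, blue is GC, red is PG and lines are means of 3. Dsp, Dsg2 and Tjp1 are the genes in which the red points all lie above the blue ones.

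Dsp encodes desmoplakin, the plaque protein that ties the desmosome to desmin filaments, and it was the junction gene with the most reads, 9881 in all. Its row (ENSMUSG00000054889) covers positions 38151328 to 38198577 of chromosome 13 in the coordinates of the table, with 28 exons. Dsp had 975, 1100 and 1722 exon reads in GC replicates 1, 2 and 3 and 2142, 2392 and 1550 in PG replicates 1, 2 and 3. On the TMM-scaled CPM scale these were 466, 475 and 531 in GC and 707, 755 and 722 in PG. The groups lie well apart: the gap between the highest GC and the lowest PG library was larger than the range within either group. The mean was 491 ± 35.2 CPM (GC) and 728 ± 24.6 CPM (PG; SD, n = 3 each). PG was 1.48-fold higher (95% interval 1.25 to 1.76), on the log2 scale 0.57 ± 0.12 (SE). Its adjusted p by edgeR was 0.0217, from the 27th smallest p of the genes tested.

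The size of the Dsp change varied little between settings, and its call did not hold in all of them. With all 6 libraries and the replicate number as a block the adjusted p was 0.117 (edgeR). In the edgeR fits that left out a library the log2 change stayed between 0.53 and 0.63, but the adjusted p was 0.0729 without GC replicate 1, 0.211 without GC replicate 2, 0.0516 without PG replicate 1 and 0.155 without PG replicate 2. It passed without GC replicate 3 (0.0191) and without PG replicate 3 (0.0275). Of the Dsp reads 97.9% fitted a single place. On such unique reads the log2 change was 0.58 and the edgeR adjusted p 0.00327, where 1.08% of all genes tested passed. In the authors' deposited table Dsp has a fold change of 1.5 and a false discovery rate of 0.0114, and the other 9 junction genes have rates of 1.00; 0.0625% of all rows there, and 0.263% of the genes tested here, lie under 0.05.

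**Figure D2:**
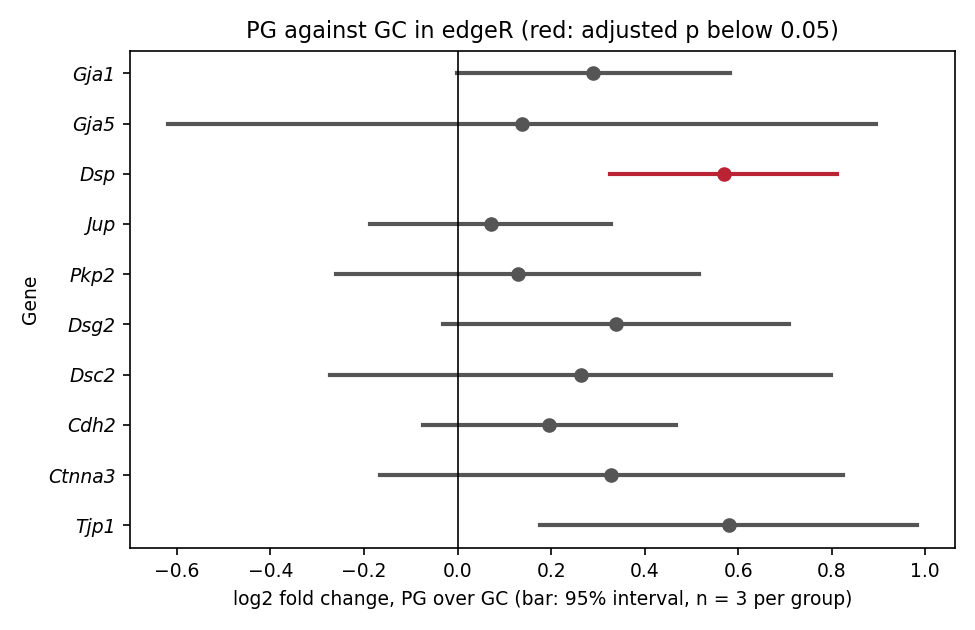
Log2 fold change of PG over GC for each junction gene in edgeR, with 95% intervals from 3 libraries per group; red marks an adjusted p below 0.05. Dsp at 0.57 is the red one, and the interval of Tjp1 also lies above 0 but its adjusted p is 0.236.

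Ratios within a library do not depend on how libraries are scaled, and the ratio of Dsp to the other 4 desmosome genes summed separated the groups. Jup weighs most in that sum, with 3673 reads beside 729 for Pkp2, 935 for Dsg2 and 678 for Dsc2. For each read of Jup, Pkp2, Dsg2 or Dsc2 there were 1.42, 1.34 and 1.40 Dsp reads in GC replicates 1, 2 and 3 and 1.86, 1.81 and 1.92 in PG replicates 1, 2 and 3. Against Jup alone the ratio was 2.06, 2.08 and 2.45 in GC and 3.17, 3.01 and 3.12 in PG. For the 4 genes summed, the GC values lie close together, and so do the PG values, with a step between them. The 2-sided exact permutation p for that sum was 0.100. The ratios, to the sum and to each of the other 9 junction genes, were computed after the Dsp values had been seen. The ratios to Jup, Pkp2 and Cdh2 were higher in every PG library than in any GC library, with a 2-sided exact permutation p of 0.100 each, the smallest that 3 against 3 allows, and 0.300 after Benjamini-Hochberg adjustment over the 9. The other 6 overlapped, with exact permutation p-values from 0.2 (Gja1) to 0.8 (Tjp1). Among these were the desmosome genes Dsg2 and Dsc2, with exact permutation p-values of 0.3 and 0.7. Since this test cannot go below 0.100 with 3 libraries per group, it could not decide whether Dsp changed more than any of the 9.

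**Figure D3:**
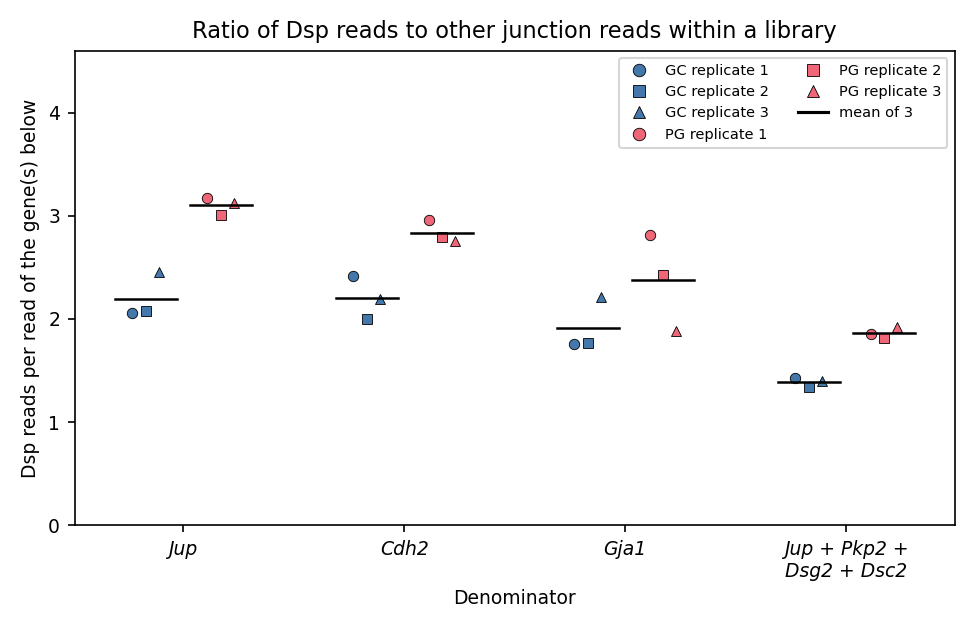
Dsp reads per read of Jup, of Cdh2, of Gja1 and of the other 4 desmosome genes summed, within each library; markers are replicates 1 to 3, blue GC, red PG, and lines are means of 3. The ratio to the 4 desmosome genes runs from 1.34 to 1.42 in GC and from 1.81 to 1.92 in PG, while the ratio to Gja1 overlaps.

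The other desmosome genes did not pass the test. Jup encodes plakoglobin, an armadillo-repeat protein found in desmosomes and adherens junctions alike (chromosome 11, 100368958 to 100397763). Its 3673 reads, all of them unique, gave 227, 229 and 217 CPM in GC replicates 1, 2 and 3 and 223, 251 and 231 CPM in PG. These values are nearly level across the 6 libraries and the groups overlap. The log2 change of Jup was 0.07 ± 0.12 (SE), with a 95% interval of -0.19 to 0.33 and an adjusted p of 0.899 (edgeR). The upper bound of that interval, a ratio of 1.26, lies just above the lower bound for Dsp, a ratio of 1.25.

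Pkp2 encodes plakophilin 2, the heart's main desmosomal plakophilin, which binds desmoplakin (chromosome 16, 16213318 to 16272712). It had means of 42.7 ± 4.45 CPM (GC) and 46.6 ± 8.14 CPM (PG; SD, n = 3), from 83 to 174 reads per library. The PG libraries span the GC ones, with PG replicate 3 the lowest of the 6 and PG replicate 2 the highest, and the log2 change was 0.13 ± 0.19 (SE).

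Dsg2 and Dsc2 encode desmoglein 2 and desmocollin 2, the cadherins that meet across the desmosome, and both lie on chromosome 18 (20558074 to 20604521 and 20030633 to 20059554). Dsg2 had 39.7, 53.6 and 59.5 CPM in GC replicates 1, 2 and 3 and 60.8, 60.6 and 74.1 in PG, log2 change 0.34 ± 0.18 (SE), adjusted p = 0.526 by edgeR. Its lowest PG value was only just above its highest GC value. Of the Dsg2 reads 61.7% were unique, and on those the groups overlapped and the log2 change was 0.15 ± 0.21 (SE). Dsc2 spread the most of the 10 in GC, at 21.5, 30.2 and 56.8 CPM, with 50.5, 49.9 and 31.7 in PG. Its coefficient of variation in GC was 50.7%, far above what counting error gives at its 45 to 184 reads. Its log2 change of 0.26 turned into 0.77 without GC replicate 3 and 0.01 without GC replicate 1, in neither case past the threshold in edgeR. For Dsp the coefficients of variation were 7.17% in GC and 3.38% in PG.

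The 2 connexin rows differed in what their reads could show. Gja1 encodes connexin 43, the main connexin of the working ventricle (chromosome 10, 56377300 to 56390419). Its 4524 reads, all unique, gave 265, 268 and 240 CPM in GC replicates 1, 2 and 3 and 252, 311 and 384 in PG. The GC libraries are close together, PG replicates 2 and 3 lie above them, and PG replicate 1 lies inside the GC range. The log2 change of Gja1 was 0.29 ± 0.14 (SE), with a 95% interval of 0.00 to 0.58 and an adjusted p of 0.480 (edgeR). It was 0.13 without PG replicate 3 and 0.43 without PG replicate 1. PG replicate 3 is also the library with the largest share of exon reads in Lars2 and Tmem38b, 52.5%. With these genes taken out before TMM scaling, which trims extreme rows in any case, the log2 change of Gja1 was 0.29 ± 0.14 (SE). Whether the make-up of PG replicate 3 bears on its Gja1 value was not tested.

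Gja5 encodes connexin 40, a connexin of the atria, the conduction system and arterial endothelium. Its row held 22, 22 and 30 exon reads in GC replicates 1, 2 and 3 and 29, 27 and 31 in PG, which looks like a low and even level. Of these 161 reads, however, only 3 fitted a single place, 1 each in GC replicate 1, PG replicate 1 and PG replicate 3. In the other 3 libraries 0 unique reads allow up to 1.39 to 1.93 CPM of unique exon reads, counting error only. The row itself is wider than the gene in RefSeq: it runs from 96904693 to 97077416 on chromosome 3, 172724 bases, and starts 127709 bases before the RefSeq gene of GRCm38.p6 (97032402 to 97053634). It overlaps by 654 bases the Gpr89 row, which had 270 reads of which 182 were unique. Where the 158 reads that are not unique come from was not tested, and the log2 change of Gja5, 0.14 ± 0.37 (SE), rests almost wholly on those reads. Beside it, the 5 atrial markers summed to 1297 to 1901 CPM in GC and 1173 to 1477 in PG. Most of that sum was Nppa (984 ± 238 CPM in GC, SD, n = 3), and Myl4 and Myl7, atrial myosin light chains, had log2 changes of -0.58 and -0.66 with adjusted p-values of 0.0691 and 0.0850 (edgeR). The log2 change was -0.14 for Nppa itself, -0.23 for Bmp10 and 0.12 for Sln, with edgeR adjusted p-values of 0.802, 0.633 and 0.924. The 6 arterial endothelial markers summed to 29.4 to 42.1 CPM in GC and 32.8 to 54.5 in PG.

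Cdh2, Ctnna3 and Tjp1 complete the disc. Tjp1 encodes ZO-1, a scaffold that binds the tail of connexin 43 and links it to the adherens junction (chromosome 7, 65296165 to 65527781). Its reads, all unique, gave 30.6, 44.5 and 45.6 CPM in GC replicates 1, 2 and 3 and 47.9, 67.3 and 67.1 in PG. PG replicate 1 sits just above the GC libraries and the other PG libraries well above them. The log2 change of Tjp1 was 0.58 ± 0.20 (SE), as large as that of Dsp, but on 817 reads against 9881, with a raw p of 0.00669 and an adjusted p of 0.236 in edgeR. It did not pass in any of the other settings that gave it an adjusted p, where that value ran from 0.130 to 0.628.

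Cdh2 encodes N-cadherin, the cadherin of the cardiac adherens junction (chromosome 18, 16588877 to 16809246). It had 193, 238 and 242 CPM in GC replicates 1, 2 and 3 and 239, 271 and 262 in PG, so that only GC replicate 1 stood clearly below the rest. The log2 change was 0.20 ± 0.13 (SE) with an adjusted p of 0.644 (edgeR), and 0.22 on the 70.4% of reads that were unique. Ctnna3 encodes alpha-T-catenin, which binds plakophilin 2 as well as the cadherin complex (chromosome 10, 63430098 to 65003667). It was the scarcest member whose reads were nearly all unique, with 36 to 86 reads per library, means of 23.1 ± 5.25 CPM (GC) and 29.4 ± 5.08 CPM (PG; SD, n = 3) and a log2 change of 0.33 ± 0.24 (SE).

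Between genes, levels were compared as exon CPM per kilobase of exon, with CPM taken over all exon reads. This divides by the whole exon length, untranslated parts included, so genes with long untranslated ends are set too low by an unknown amount. Gja1 stood highest, at 81.4 ± 3.44 in GC and 102 ± 11.2 in PG (SD, n = 3), and Dsp second, at 50.1 ± 5.26 and 77.5 ± 9.56. Jup (34.2 ± 0.888 in GC) and Cdh2 (27.3 ± 4.18) followed, in this order in every library. Next came Pkp2 (7.84 ± 1.07), Dsc2 (6.80 ± 3.67), Dsg2 (6.08 ± 1.41) and Tjp1 (5.08 ± 1.2), whose neighbours in the order differ by less than their spread. Ctnna3 (3.16 ± 0.791) and Gja5 (1.66 ± 0.057, nearly all from reads that are not unique) were lowest. The order of the means was the same in PG. On unique reads in GC Dsg2 and Tjp1 changed places, and Gja5 fell to 0.040 on this scale.

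**Figure D4:**
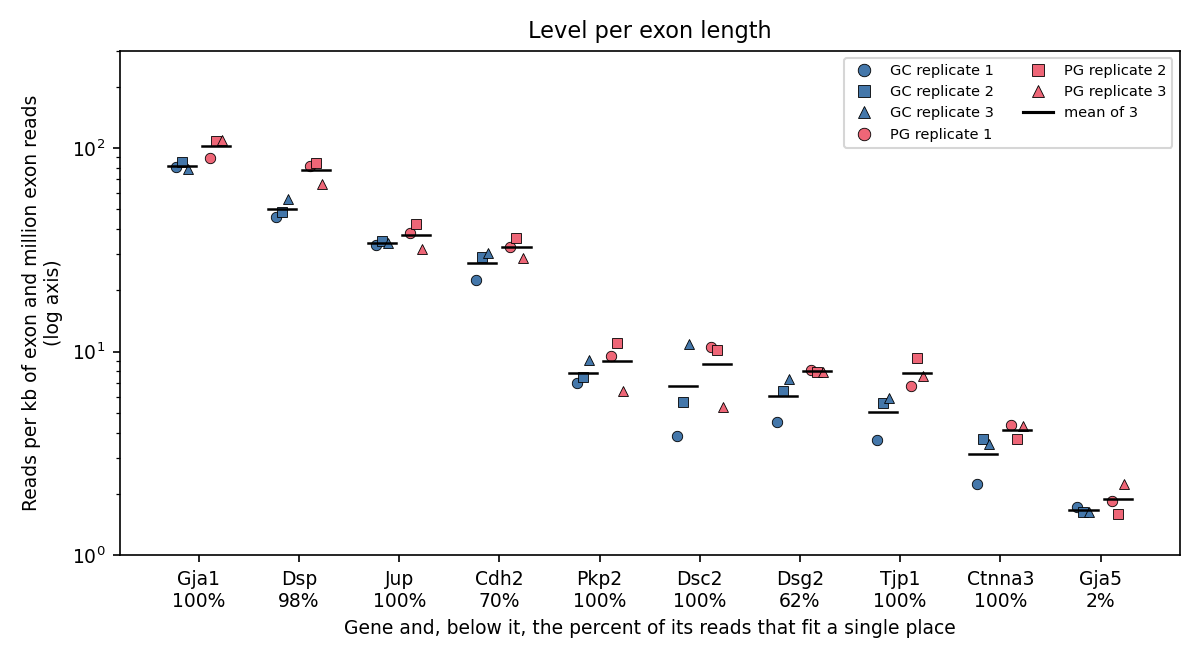
Exon CPM per kilobase of exon on a log axis, with genes ordered by their GC mean and the percent of unique reads under each name; markers are replicates 1 to 3, blue GC, red PG, and lines are means of 3. Gja1, Dsp, Jup and Cdh2 form an upper group, and Gja5 has about 2% unique reads.

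Intron reads were few for most of the junction genes but not for Ctnna3, whose gene spans 1573570 bases. Its introns held 47, 59 and 142 reads in GC replicates 1, 2 and 3 and 35, 47 and 41 in PG, which was 56.6%, 48.4% and 63.7% of its gene reads in GC and 28.9%, 37.3% and 35.3% in PG. Every PG share lies below every GC share. The same held for Cdh2, with 8.34% of pooled gene reads in introns in GC and 3.73% in PG. Lower intron shares in all 3 PG libraries were found in 2 of the 6 junction genes with at least 30 intron reads and in 16.5% of all 1747 tested genes with that many. The share over all genes was also lower in every PG library, at 65.6% to 68.7% of gene reads in GC and 63.6% to 64.4% in PG. Over the 1747 genes alone, the median of the mean share per gene was 12.3% in GC and 9.27% in PG. Dsp had 34 intron reads in all, 0.343% of its gene reads.

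Reads across exon-exon junctions, which come from spliced RNA, made up 10.6% of the Dsp reads, 90, 87 and 198 in GC replicates 1, 2 and 3 and 251, 256 and 165 in PG. In Jup, Pkp2, Dsg2, Dsc2, Cdh2, Ctnna3 and Tjp1 their share ran from 11.4% (Dsg2) to 29.3% (Ctnna3), and for Gja1, whose row has 2 exons, it was 0.155%.

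Other genes of the same structures were taken from 7 lists, 123 genes in all, of which 81 could be tested. In edgeR 0 of the 81 passed the adjusted threshold, against the 0.581% given above for all genes. At a raw p below 0.05, 9 were higher and 4 lower in PG, beside 4.82% and 5.62% of all genes. DESeq2 called 6 of the listed genes, Flnc, Lmo7, Nrap, Popdc2, Sorbs2 and Xirp2. Over all genes it called 8.22% of the 1497 to which it gave an adjusted p. How many listed genes were among those 1497 was not counted, so the 6 have no share to set beside it. The median log2 change of the 81 was 0.04.

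Of the other connexins and pannexins 3 of 21 were tested, 0 passed and 10 had no read at all. Gja3 (log2 change 0.45 ± 0.49, SE), Gja4, the connexin 37 of arterial endothelium (0.81 ± 0.54), and Gjc1, connexin 45 (0.32 ± 0.42), rested on 75 to 147 reads each. Of the other desmosome and desmin-anchor genes 6 of 16 were tested and 0 passed. The epidermal cadherins Dsg1a, Dsg1b, Dsg3, Dsg4, Dsc1 and Dsc3 and the plakophilin Pkp1 had 0 reads in all 6 libraries. Pkp4, an armadillo protein of cell junctions, had means of 46.2 ± 7.30 CPM (GC) and 64.2 ± 5.97 CPM (PG; SD, n = 3), with a log2 change of 0.47 and an adjusted p of 0.313 in edgeR. Perp, a membrane protein of desmosomes, had a log2 change of 0.36 with an adjusted p of 0.440 (edgeR). Des, the desmin to which desmoplakin binds, had means of 589 ± 94.0 CPM (GC) and 616 ± 39.3 CPM (PG), a log2 change of 0.06 ± 0.13 (SE).

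Among 26 other adherens junction genes 20 were tested, 0 passed and the median log2 change was 0.04. Its most abundant members were Ctnna1, alpha-E-catenin (-0.07 ± 0.12, SE), Ctnnb1, beta-catenin (0.05 ± 0.14, with 43.7% of its reads unique), and the actin-binding gene Ablim1 (0.18 ± 0.13). Of the tight junction type genes 12 of 16 were tested and 0 passed; the most abundant per length were Cldn5, the endothelial claudin (-0.43 ± 0.28), F11r (-0.23 ± 0.21) and Jam2 (0.39 ± 0.18). None of these values passed in edgeR, and the largest in size, that of Cldn5, had an adjusted p of 0.632.

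The genes associated with the disc more loosely went both ways without passing. Of 23 tested, 5 were higher and 3 lower at a raw p below 0.05, and the median was 0.02. Popdc2, a cyclic-AMP binding membrane protein, had means of 352 ± 19.8 CPM (GC) and 276 ± 1.53 CPM (PG; SD, n = 3) and an adjusted p of 0.241 in edgeR. Ldb3, a Z-disc protein also called ZASP, had a log2 change of -0.21 ± 0.11 (SE). Named after their values were seen because DESeq2 called them, Lmo7 (0.51), Sorbs2 (0.48), Nrap (0.42) and Xirp2 (0.36) had positive log2 changes and Flnc, filamin C, a negative one (-0.45), with adjusted p-values of 0.105 to 0.268 in edgeR. Of the Xirp2 reads 25.7% were unique.

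Of 11 transcription factors that act on cardiac connexin genes 9 were tested, with log2 changes from -0.34 (Tbx5) to 0.73 (Tbx3). Of these 0 passed in edgeR, and 0 had a raw p below 0.05. Nkx2-5 (0.03 ± 0.19, SE), Gata4 (-0.07 ± 0.16) and Hopx (-0.09 ± 0.14) were the most abundant per length. Of 8 connexin trafficking and turnover genes tested 0 passed in edgeR. Cav3, the caveolin of muscle, was below GC in every PG library (log2 change -0.62, edgeR raw p 0.00447, adjusted p 0.196). The ubiquitin ligase gene Nedd4 was above GC in every PG library (0.21 ± 0.12, edgeR adjusted p 0.561). Groups that do not overlap were found in 16.3% of all genes tested. The autophagy receptor gene Sqstm1 had a log2 change of 0.02 ± 0.13 and Cav1, with 12.0% of its reads unique, -0.09 ± 0.16.

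In a whole heart a change in the number of cells of a type cannot be told apart from a change per cell. Beside the higher Dsp, the ventricular muscle markers summed to 47005 to 51933 CPM in GC and 42543 to 47498 in PG, which overlap, and of these 12 genes 3 had a positive log2 change and 0 passed in edgeR. Epithelium also carries Dsp. Its 7 markers summed to at most 12.5 CPM in GC and 0.991 in PG, with Krt5, Krt14 and Cdh1 at 0 reads in all libraries. The 5 mesothelial markers summed to means of 6.02 ± 3.50 CPM (SD, n = 3) in GC and 3.97 ± 1.72 in PG. Fibroblast markers (563 to 623 CPM in GC, 532 to 544 in PG), macrophage markers (164 to 209 and 118 to 137) and kidney markers (23.1 to 35.9 and 1.58 to 11.2) were lower in every PG library than in any GC library when summed. Of the 6 fibroblast markers tested 2 had a positive log2 change, Dcn (0.12 ± 0.13, SE) and Pdgfra (0.33 ± 0.23), and 0 passed in edgeR. The kidney gene Kap (log2 change -3.32), the liver gene Alb (-2.97) and the smooth muscle actin gene Acta2 (-0.64) were each called lower, with edgeR adjusted p-values of 0.00374, 0.0340 and 0.0323. Alb stood high in GC replicate 2 alone, and its groups overlapped. It had 9.08, 77.8 and 7.09 CPM in GC replicates 1, 2 and 3 and 7.59, 1.90 and 1.86 in PG. Of the 7 smooth muscle and pericyte markers tested 5 had a positive log2 change, and Rgs5, a pericyte gene, was above GC in every PG library (0.43, adjusted p = 0.162 by edgeR). Liver markers overlapped as a sum, at 14.2 to 121 CPM in GC and 4.42 to 14.9 in PG, and so did endothelial ones, at 799 to 904 and 754 to 834. Smooth muscle and pericyte markers summed to 760 to 892 CPM in GC and 849 to 878 in PG, and conduction system markers to 15.6 to 36.3 and 16.8 to 31.6, with Isl1 at 0 reads. The part of these shifts in the junction gene values was not tested.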

How the data were processed

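Per the labels' protocols, hearts were frozen and lysed, nuclei, debris and mitochondria were removed, extracts were digested with RNase I and monosomes were pelleted through 50% sucrose. The authors deposited one table in which, per the file headers, each library has counts of total, unique, exon-exon and intron reads and an RPKM (not used for any value here); the submitters' processing notes name GRCm38 and mm10, while for aligner, counter and strand the sources used here give nothing. Deposited beside these, per the file headers, are the authors' p-values, false discovery rates and a signed fold change, read as a score, for PG against GC. A further 60 columns of per-library values were not used.

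Total exon read counts went into edgeR 4.0.16 under R 4.3.3 (filterByExpr with a minimum count of 10, TMM, glmQLFit and glmQLFTest, group as the only term) on all 9124 genes that passed the filter. SE came from the F statistic. Starts were shifted to count from 1. DESeq2 1.42.0, unique reads, other scalings, no filter, the replicate number as a block and leaving out each library were the alternatives; coding length was not run, since no protein table was used here. Pairs of libraries within a group differed beyond sampling noise (chi-square over degrees of freedom 4.16 to 24.2). The test was checked on simulated counts. The genes and lists were chosen with earlier results of these data known; the rule names all junction genes, and of each companion list any called gene and the 3 most abundant tested genes per exon length, and of each marker list the most abundant gene. Flnc, Lmo7, Nebl, Nrap, Sorbs2, Xirp2, Cav3, Tbx3, Tbx5, Rgs5, Myl4, Myl7, Bmp10, Sln, Pdgfra and the genes at 0 reads are exceptions, chosen with their values in view. No sequence is shown, since the files used hold none of the coding regions. Some genes that the rule names are not reported here.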

Additional observations from a re-analysis of the deposited data

How the results depend on the processing

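Dsp passed the threshold in 7 of 12 other settings, with log2 fold changes of 0.53 to 0.63, and no other junction gene with an adjusted p passed in any of them (DESeq2 gave none to Gja5, Pkp2, Dsc2, Ctnna3 and Tjp1); the cause of the lost calls was not tested, beyond the fewer samples when a library is left out. The count of junction genes called was 0 with the replicate block and 0 to 1 when a library was left out. The count over all genes, 53, became 90 on unique exon reads, 123 in DESeq2, 181 with no filter on low counts, 22 with the replicate block and 19 to 102 when a library was left out. The count of called genes in the companion lists, 0, became 1 on unique exon reads (Sorbs2), 6 in DESeq2 and 3 with no filter (Lmo7, Nebl and Sorbs2). With the replicate block the adjusted p of Dsp was 0.117 (edgeR). Libraries of the same number did not deviate together (r of -0.0329 to -0.00896 across genes). Those of different number had r of -0.00463 to 0.0194. An r across genes cannot tell whether a pair shared a mission, which the labels do not give. The direction turned for Gja5 without PG replicate 3 (-0.10, within a range of -0.10 to 0.29 over fits that left out a library) and for Pkp2 without PG replicate 2 (-0.010, range -0.010 to 0.24). Library size alone as the scaling shifted the median of all genes to 0.06. Gja5 could not be tested on its 3 unique reads, and depth limits Ctnna3, Pkp2, Dsg2, Dsc2 and Tjp1, with 36 to 213 reads per library. Levels per coding length were not run, since no protein table was used here.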
